A study of Mus musculus with 12 samples.

Results

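C1qa, C1qb and C1qc encode the A, B and C chains of C1q, the recognition protein of the classical complement pathway. RNA of these 3 genes was followed here through blood-forming cell clusters of the mouse embryonic aorta, across 2 ages and 2 phases of the cell cycle. The 3 genes were taken by symbol from 24138 gene models in each deposited table, and each symbol had 1 model. They were selected on their measured group values in the same tables, so their own levels, differences and q-values below are a description and no independent evidence.

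The cells were C57BL/6 mouse cells of the aorta-gonad-mesonephros (AGM) region, sorted for CD31 and CD117 and against SSEA-1, the surface profile used here for intra-aortic haematopoietic clusters. The cycling group, called S/G2/M for the phases it covers, was taken as mAG-positive from Fucci Green embryos, and the G1 group as mKO2-positive from Fucci Red embryos. The 12 samples formed 4 groups of 3, which were E11.5 S/G2/M, E11.5 G1, E10.5 S/G2/M and E10.5 G1. The E marks the embryonic day. All groups shared strain, region and surface gate, whereas phase coincided with the reporter strain, so the effects of phase and reporter strain cannot be told apart. The labels give neither the promoter that drives the reporters nor whether embryos were pooled.

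The tables hold 1 value per gene and group, in FPKM (fragments scaled to transcript length and library size), with the p-value and q-value of the authors' gene test. No value of a single sample was in the files used, so no SD and no test over samples is given, and the read depth is unknown. A gene is called, or said to have risen or fallen, where its q, read from the authors' deposited table, lay below 0.05. Nothing states that replicates were separate litters or embryos, so these p-values may reflect technical spread alone. Kit, which encodes CD117, and Pecam1, which encodes CD31, were present in every group, at 12.7 to 28.9 FPKM for Kit and 30.2 to 111 FPKM for Pecam1. Cdh5, the endothelial cadherin gene, and Runx1, a transcription factor of blood formation, were also present, at 102 to 241 FPKM and 9.85 to 39.6 FPKM.

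C1q is assembled from its A, B and C chains, each with a collagen-like stalk and a globular head that binds antibodies, dying cells or microbes. In the classical pathway the bound protein activates its partner proteases C1r and C1s, which then cleave C4 and C2. Unlike most complement proteins, which come largely from the liver, C1q is made mainly by macrophages and dendritic cells, and embryonic macrophages express it while they clear dying cells.

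The 3 genes lie side by side on the minus strand of chromosome 4 (mm10), within 18700 bases that hold no other annotated gene. C1qb spans 136880145 to 136886177, C1qc spans 136889802 to 136892914 and C1qa spans 136895916 to 136898844. The gaps are 3624 bases between C1qb and C1qc and 3001 bases between C1qc and C1qa. Each main transcript has 3 exons in GENCODE M21, and the transcripts are of similar length, at 1040 bases for C1qa, 1088 bases for C1qb and 1203 bases for C1qc.

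Because the chains moved together, the stretches just before their start sites are shown for the 2 genes with an entry in the RefSeq promoter table, C1qb and C1qc. There is no entry for C1qa. The stretch searched was the 250 bases before the RefSeq start site, 5′ to 3′ on the gene's own (minus) strand, in GRCm38.p6. It is shown whole for C1qb, at chr4:136886201-136886450. GENCODE M21 starts C1qc further upstream than RefSeq, so 151 of its 250 bases lie inside the GENCODE gene and are not printed, and the other 99 bases are shown, at chr4:136893066-136893164. Capitals mark matches on either strand to TGCTGA, the core recognised by MAF factors, or to AGGAAG, the core bound by PU.1 and other ETS factors.
C1qb: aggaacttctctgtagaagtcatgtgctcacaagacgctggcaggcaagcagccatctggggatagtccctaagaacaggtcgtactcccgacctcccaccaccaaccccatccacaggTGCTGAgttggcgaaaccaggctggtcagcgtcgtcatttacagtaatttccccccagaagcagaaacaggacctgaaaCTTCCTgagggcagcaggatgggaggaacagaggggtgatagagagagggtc
C1qc: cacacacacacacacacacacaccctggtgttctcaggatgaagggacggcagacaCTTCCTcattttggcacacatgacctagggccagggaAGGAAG

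The C1qb stretch holds 1 match to TGCTGA, which begins 131 bases before the start, and 1 match to AGGAAG on the opposite strand, 52 bases before the start. The C1qc stretch holds 2 matches to AGGAAG, at 194 and 157 bases before the RefSeq start and both upstream of the GENCODE start, and none to TGCTGA. Neither stretch holds TATAAA, the TATA box, or the core of interferon response elements, which is a pair of GAAA runs with any 2 bases between them. Of 32851 promoter stretches of the same length, 16.1% hold TGCTGA, 29.5% hold AGGAAG, 12.4% hold TATAAA and 2.98% hold the interferon response core on either strand. The matched letters are therefore common, the patterns searched do not overlap one another in these stretches, and a match shows neither a bound factor nor a cause.

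All 3 chains had the same order of levels over the groups, highest in E11.5 G1, then E11.5 S/G2/M, then E10.5 G1, and lowest in E10.5 S/G2/M. Each group appears in 3 deposited tables, which the authors scaled separately, so each gene has 3 readings of 1 group value.

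C1qb, the B chain, read 158, 166 and 170.2 FPKM in E11.5 S/G2/M cells, and 645, 653 and 640.4 FPKM in E11.5 G1 cells. In the younger cells it read 54.7, 53.8 and 54.3 FPKM in S/G2/M, and 84.5, 81.1 and 83.8 FPKM in G1. The highest reading of a group exceeded the lowest by at most 7.41%, and no readings of different groups overlapped. These repeats show the scaling of the tables and not the spread between samples.

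C1qc, the C chain, read 169.9, 178 and 181 FPKM in E11.5 S/G2/M cells, against 617, 623 and 607 FPKM in E11.5 G1 cells. At E10.5 it read 41.5, 40.8 and 41.0 FPKM in S/G2/M cells, against 77.6, 74.2 and 76.2 FPKM in G1 cells. C1qc thus stayed close to C1qb in level, at 0.759 to 1.07 times C1qb over the 4 groups.

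C1qa, the A chain, was the lowest of the chains in every group. It read 17.5, 18.3 and 18.4 FPKM in E11.5 S/G2/M cells, against 106, 108 and 104 FPKM in E11.5 G1 cells. At E10.5 it read 4.76, 4.68 and 4.73 FPKM in S/G2/M cells, against 7.37, 7.08 and 7.28 FPKM in G1 cells.

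FPKM is already divided by transcript length, so the chains are set side by side within a group. Other differences in how well each transcript is measured are not removed and were not tested. C1qb was 9.04 times C1qa in E11.5 S/G2/M, 6.08 times in E11.5 G1, 11.49 times in E10.5 S/G2/M and 11.46 times in E10.5 G1. C1qa made up 7.76% of the summed level of the chains in E11.5 G1, and between 4.35% and 5.07% in the other groups. The chains are joined in equal numbers in the protein, whereas their RNA levels were unequal in every group by this measure.

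Among all 24138 gene models ordered by level, C1qb and C1qc stood near the top in E11.5 G1 cells, at rank 128 or 129 for C1qb and 131 or 132 for C1qc, depending on the table. In E10.5 S/G2/M cells they ranked 1276 to 1287 and 1676 to 1693. C1qa ranked 634 to 646 in E11.5 G1 cells and 8212 to 8236 in E10.5 S/G2/M cells.

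**Figure D1:**
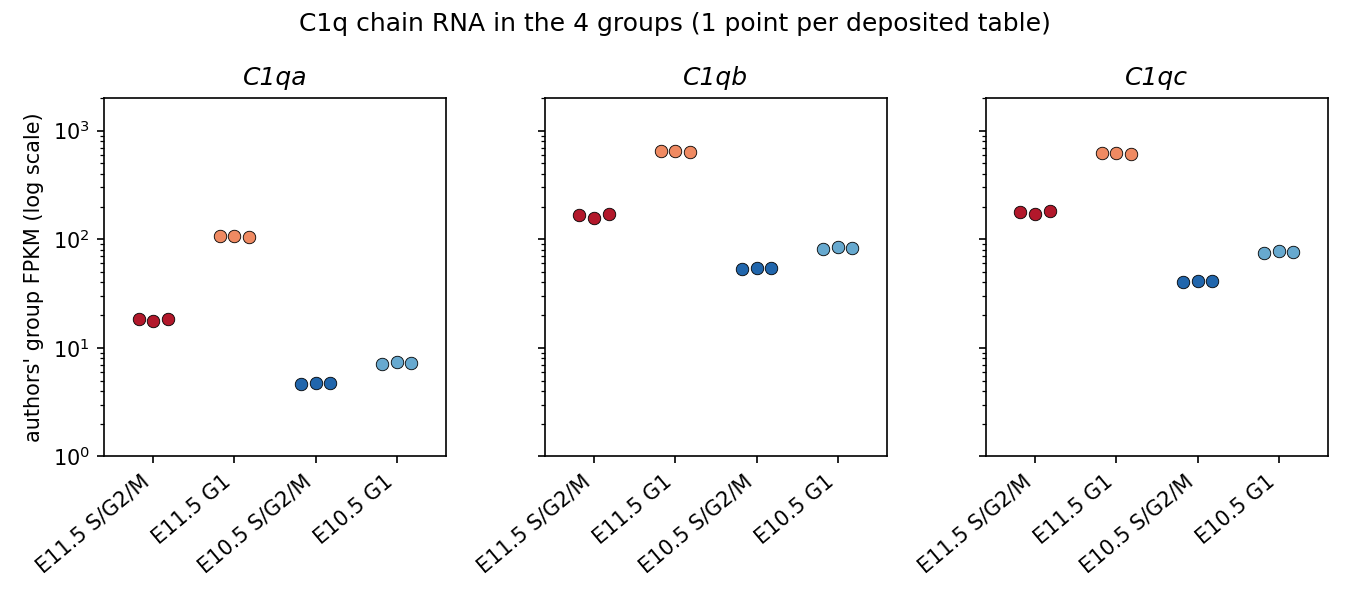
Authors' group FPKM (vertical axis, log scale) of C1qa, C1qb and C1qc in the 4 groups, with 1 point for each of the 3 deposited tables that hold a group; points are not replicates. Each chain is highest in E11.5 G1 and lowest in E10.5 S/G2/M, and C1qa lies below C1qb and C1qc throughout.

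The comparison of ages within G1 gave the largest differences of the chains. The level in E11.5 G1 cells was 15.2 times that in E10.5 G1 cells for C1qa, 8.05 times for C1qb and 8.40 times for C1qc, or 3.93, 3.01 and 3.07 on the log2 scale. The q-values in the authors' deposited table were 0.0265 for C1qa and 0.00273 for C1qb and C1qc, so 3 of 3 chains were called higher, where 3.0% of 12953 tested genes were called higher and 1.45% lower. The members were chosen in these data, and nothing is read from this count.

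Within S/G2/M the same age comparison gave smaller values. E11.5 cells held 3.91 times the C1qa level of E10.5 cells, 3.08 times the C1qb level and 4.37 times the C1qc level. By the authors' deposited table C1qb (q = 0.00548) and C1qc (q = 0.00308) were called higher, while C1qa was not (q = 0.373, unadjusted p = 0.0538), which makes 2 of 3 chains. Here 2.14% of 12768 tested genes were called higher and 1.93% lower. C1qa had a larger fold than C1qb but a far lower level, 18.3 FPKM against 166 FPKM in E11.5 S/G2/M cells.

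The comparison of phases at E11.5 placed all 3 chains lower in S/G2/M than in G1. The log2 difference, S/G2/M over G1, was -2.60 for C1qa, -2.03 for C1qb and -1.86 for C1qc, and the chains spanned 0.74 on this scale. In the authors' deposited table the q-values were 0.0175 for C1qa and 0.0102 for the other chains, so 3 of 3 were called lower, against 0.564% of 12414 tested genes called lower and 0.137% called higher. The authors' deposited table with these groups in reversed order gave C1qa a q of 0.0401 and a log2 difference of -2.51.

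At E10.5 the chains were also lower in S/G2/M cells, but by less, with log2 differences of -0.63 for C1qa, -0.63 for C1qb and -0.90 for C1qc. None of the 3 was called in the authors' deposited table, with q-values of 0.978, 0.897 and 0.670, and C1qc alone had an unadjusted p under 0.05, at 0.03645. There 0.462% of 12984 tested genes were called lower and 0.193% higher. A q above the threshold does not show that the levels were equal.

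The phase difference at E11.5 minus that at E10.5 was -1.97 for C1qa, -1.40 for C1qb and -0.96 for C1qc on the log2 scale, so the S/G2/M to G1 gap was wider at the later age for each chain. Whether these differences between ages exceed the spread between samples was not tested, since that needs a value per sample. E11.5 S/G2/M cells held more of each chain than E10.5 G1 cells (18.4 against 7.08 FPKM at the widest and 17.5 against 7.37 FPKM at the narrowest for C1qa), but no deposited table sets these groups against each other.

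The flanking gene Ephb2 differed with age in the opposite direction to the chains. Ephb2, an ephrin receptor gene that lies 44133 bases from C1qb, had 1.37 FPKM in E11.5 S/G2/M cells and 9.71 FPKM in E10.5 S/G2/M cells, and it fell with age in these cells (q = 0.0292 in the authors' deposited table). In G1 cells Ephb2 had 3.42 FPKM at E11.5 and 10.2 FPKM at E10.5, and the q was 0.124 in the authors' deposited table. Between phases Ephb2 was lower in S/G2/M cells, as the chains were, with log2 differences of -1.36 at E11.5 and -0.13 at E10.5, but it was not called (q = 0.664 and 0.988 in the authors' deposited tables). Epha8, another ephrin receptor gene, 30574 bases beyond C1qa, was at 0.0671 FPKM or less in every group and was not tested by the authors, so no pattern can be read from it.

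Most of the partners that C1q needs for the classical pathway were at or near 0. Of 10 genes of the C1 proteases and the classical cascade, 9 stayed under 1 FPKM in every group and 4 were listed at 0 in every group. C1ra, which encodes a C1r protease, had 0.206 FPKM in E11.5 S/G2/M cells and 0.779 FPKM in E11.5 G1 cells, and at most 0.0245 FPKM at E10.5. C1s1, which encodes C1s, was listed at 0 in both E11.5 groups and in E10.5 S/G2/M, with 0.112 FPKM in E10.5 G1.

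Further down the cascade, C4b and Hc (complement C5) were listed at 0 throughout. C2 was listed above 0 only in E11.5 G1 cells, at 0.213 FPKM, and C4a reached 0.512 FPKM there. C3, the central complement component, had 0.473 FPKM in E11.5 S/G2/M cells and 0.439 FPKM in E11.5 G1 cells. The authors tested none of these 9 genes, so no change can be called for them.

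Serping1, which encodes the C1 inhibitor that blocks C1r and C1s, was the single gene of this list with enough signal to be tested. It had 3.23 FPKM in E11.5 S/G2/M cells, 5.83 FPKM in E11.5 G1 cells, 8.87 FPKM in E10.5 S/G2/M cells and 7.59 FPKM in E10.5 G1 cells. Serping1 was thus higher at E10.5, the opposite of the chains, but it was not called in any of the 4 comparisons, with q-values in the authors' deposited tables of 0.366 to 0.985.

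**Figure D2:**
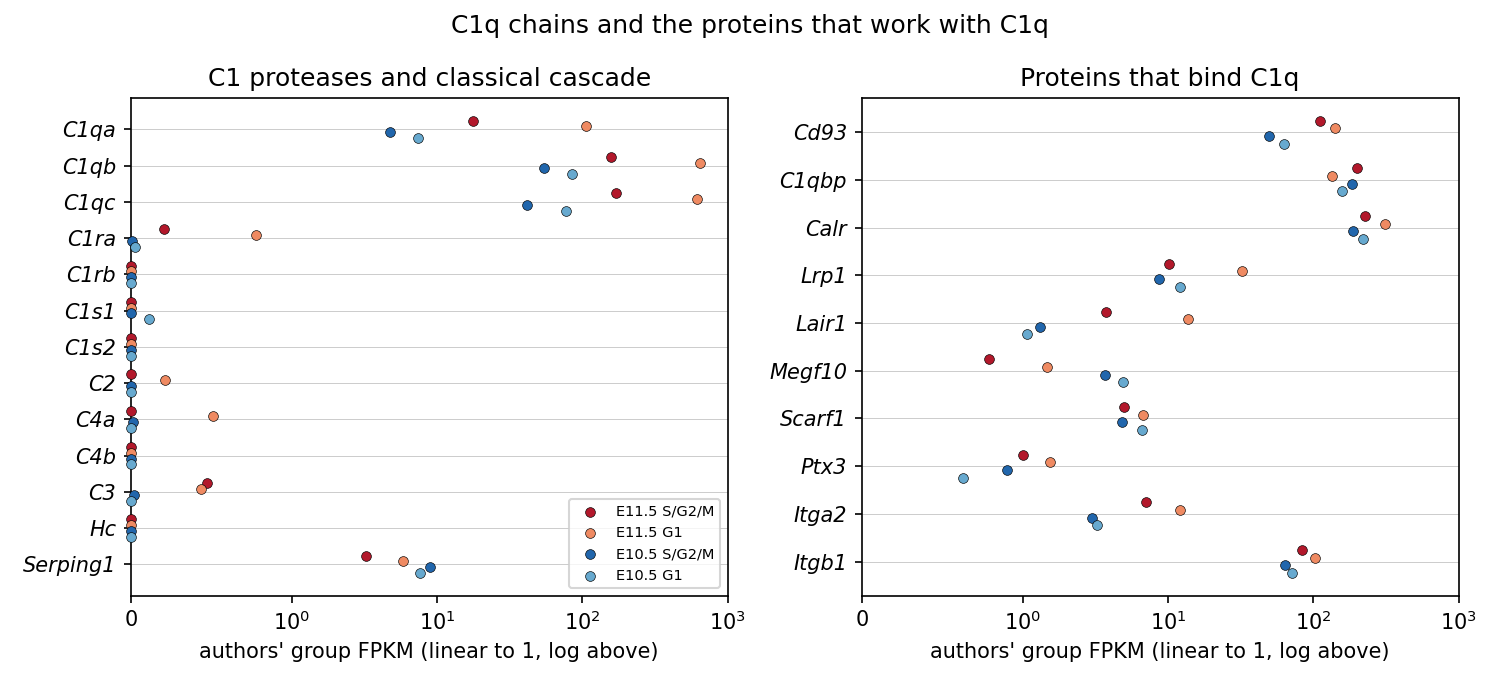
Authors' group FPKM (horizontal axis, linear up to 1 and logarithmic above) of the C1q chains and the classical cascade (left) and of proteins that bind C1q (right), 1 point per group. The chains reach 645 FPKM, whereas every cascade gene except Serping1 lies under 1 FPKM.

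Proteins that bind C1q were, in contrast, all detected and tested. Of 10 such genes, 4 rose with age in G1 cells and 1 rose with age in S/G2/M cells, and none fell. In these comparisons 3.0% and 2.14% of all tested genes were called higher. Between phases, 1 fell in S/G2/M cells at E11.5, where 0.564% of all tested genes were called lower. None was called at E10.5, where 0 of 10 reached an unadjusted p below 0.05 in the authors' deposited table. The median log2 difference of the 10 genes was 0.93 for age in G1, 0.32 for age in S/G2/M, -0.52 for phase at E11.5 and -0.19 for phase at E10.5, beside 0.02, 0.03, -0.06 and -0.04 for all tested genes above 0 in both groups.

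Lair1, an inhibitory receptor of leukocytes whose ligands include collagens and C1q, had 13.9 FPKM in E11.5 G1 cells and 1.03 FPKM in E10.5 G1 cells, and it rose 13.5-fold (q = 0.0397 in the authors' deposited table). Lrp1, an endocytic receptor, had 10.1 FPKM in E11.5 S/G2/M cells and 32.0 FPKM in E11.5 G1 cells, a fall of 3.17-fold (q = 0.0175 in the authors' deposited table). Lrp1 also rose 2.82-fold with age in G1 cells (q = 0.00273 in the authors' deposited table). Both had their highest level in E11.5 G1 cells, as the chains had. So did the other genes of this list except C1qbp and Megf10.

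Cd93, a surface protein of endothelium and early blood progenitors first described as a C1q receptor, rose with age in both phases, 2.37-fold in G1 and 2.39-fold in S/G2/M. Its levels were 112 FPKM in E11.5 S/G2/M cells and 142 FPKM in E11.5 G1 cells, and the phase q was 0.871 in the authors' deposited table. Itga2, an integrin subunit gene, rose 3.98-fold with age in G1 cells. C1qbp, which binds the globular heads of C1q and acts mainly in mitochondria, had 200.1, 135, 185 and 157 FPKM in E11.5 S/G2/M, E11.5 G1, E10.5 S/G2/M and E10.5 G1 cells, and Calr (calreticulin) had 228, 309, 188 and 218 FPKM. Neither was called in any comparison. Calr had the group order of the chains with far smaller gaps, whereas C1qbp was higher in S/G2/M than in G1 at both ages.

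Macrophage markers moved with the chains. Of 20 macrophage marker genes, none was listed at 0 in every group, but some were near 0. Cd163 was listed at 0 except in E11.5 G1, where it had 0.0203 FPKM. Timd4 had 0.188 FPKM in E11.5 S/G2/M and 0.00979 FPKM in E10.5 S/G2/M. At E10.5, in S/G2/M and G1, Cd14 had 0.488 and 0.470 FPKM and Ms4a7 0.179 and 0.0893 FPKM. The summed level of the markers was 1368, 3213, 384 and 562 FPKM in E11.5 S/G2/M, E11.5 G1, E10.5 S/G2/M and E10.5 G1. This is the same order of groups as for each chain, and it is not particular to these markers: the summed endothelial markers, C1q-binding genes, macrophage transcription factors and phagocytosis genes had it too. With age 13 of 19 tested markers rose in G1 cells and 10 of 18 in S/G2/M cells, and none fell. Of all tested genes, 3.0% were called higher with age in G1 and 2.14% in S/G2/M. Between phases 6 of 19 fell in S/G2/M cells at E11.5 and none rose, where 0.564% of all tested genes were called lower. At E10.5 none of 17 was called, though 16 had a lower level in S/G2/M. There 4 lay below an unadjusted p of 0.05 in the authors' deposited table.

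The defining macrophage markers were above 0 in every group. Csf1r, the gene of the growth factor receptor that macrophages depend on, had 73.5 FPKM in E11.5 S/G2/M, 228 FPKM in E11.5 G1, 18.7 FPKM in E10.5 S/G2/M and 29.4 FPKM in E10.5 G1. Adgre1, which encodes F4/80, had 11.6, 47.1, 2.90 and 3.39 FPKM in the same order of groups. Cd68, a lysosomal membrane protein gene, had 39.9, 186, 18.4 and 37.0 FPKM, Cx3cr1, a chemokine receptor gene, had 37.2, 112, 13.2 and 16.6 FPKM, and Mrc1, which encodes the mannose receptor, had 42.3, 115, 7.91 and 18.6 FPKM. Fcer1g and Tyrobp, which encode signalling adaptors shared by many myeloid cells, were the most abundant of the list, at 947 and 810.2 FPKM in E11.5 G1.

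The largest rises with age in G1 cells were 14.7-fold for Adgre1, 11.4-fold for Mpeg1, which encodes a pore-forming protein of macrophages, 8.30-fold for Lgmn, 8.19-fold for Csf1r, 7.43-fold for Sirpa and 7.25-fold for Ctss, a lysosomal protease gene. In S/G2/M cells Ctss rose 12.8-fold, Mpeg1 8.70-fold, Mrc1 5.64-fold, Adgre1 4.22-fold, Csf1r 4.17-fold and Fcer1g 3.65-fold with age. The 6 that fell in S/G2/M cells at E11.5 were Cd68, Adgre1, Lgmn, Mpeg1, Csf1r and Cx3cr1, by 3.02-fold to 4.67-fold.

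Set against Csf1r, C1qb stood at 2.15 times its level in E11.5 S/G2/M, 2.83 times in E11.5 G1, 2.93 times in E10.5 S/G2/M and 2.87 times in E10.5 G1. The summed chains stood at 0.253, 0.426, 0.263 and 0.301 times the summed macrophage markers in these groups. The C1qb ratio ranged from 13.7 to 24.9 for Adgre1, from 2.29 to 3.97 for Cd68, from 3.75 to 6.91 for Mrc1 and from 4.14 to 5.74 for Cx3cr1. Against Kit, the gene of the sort marker CD117, C1qb stood at 5.48, 38.3, 4.29 and 5.60 times. The Kit ratio stood far higher in E11.5 G1 than in the other groups. Among those groups the Kit ratio was 4.29 to 5.60, the Cx3cr1 ratio 4.14 to 5.08 and the Csf1r ratio 2.15 to 2.93. The ratios to Adgre1, Cd68 and Mrc1 varied more there, in relative terms. The sort took CD117-positive cells, and mature macrophages generally lack CD117, but the purity of the sorted cells was not tested. In these bulk samples, more macrophage-like cells and more C1q RNA per cell cannot be told apart, and the part of the macrophage genes in the C1q differences was not tested.

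**Figure D3:**
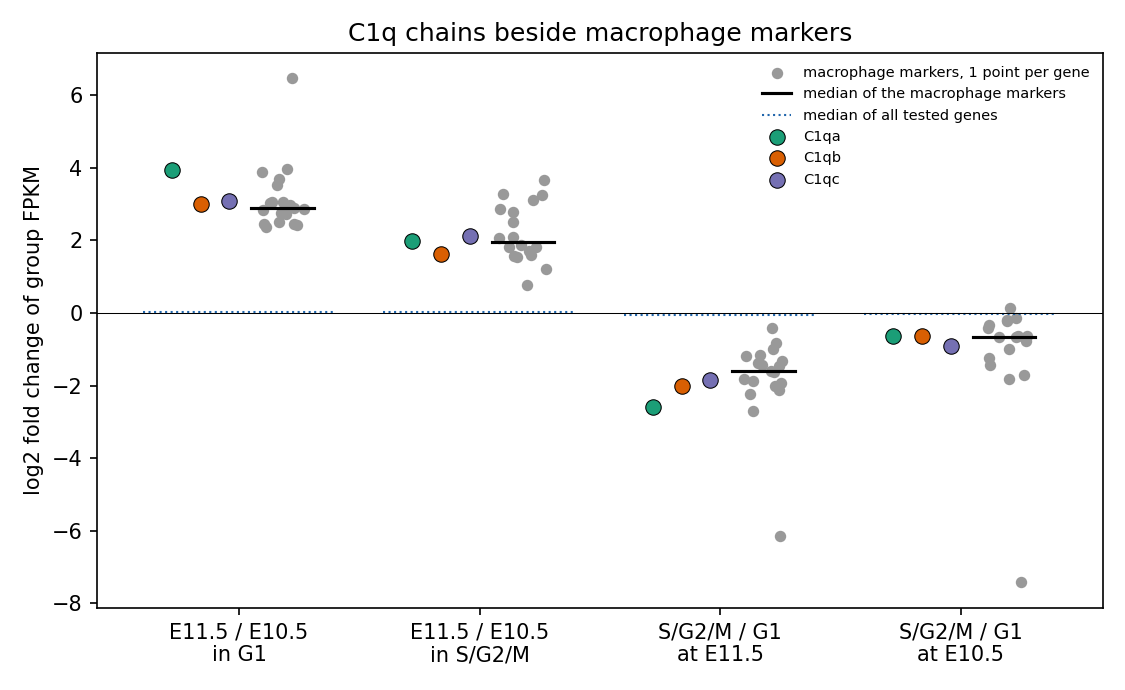
Log2 fold change of group FPKM (vertical axis) for C1qa, C1qb, C1qc and each tested macrophage marker above 0 in both groups (grey) in the 4 comparisons, with the median of the markers (black line) and of all tested genes (dotted line). C1qb and C1qc lie among the called markers where any are called, while C1qa, at -2.60 for phase at E11.5 and 3.93 for age in G1, lies beyond every called marker (-2.22 for Cd68 and 3.87 for Adgre1). Some markers that were not called lie beyond C1qa, such as Timd4 at -6.13 for phase at E11.5 and Ms4a7 at 6.46 for age in G1.

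Among transcription factors of macrophages, 3 of 12 tested rose with age in G1 cells and 1 of 11 in S/G2/M cells, and none fell. The shares of all tested genes called higher were 3.0% and 2.14%. None was called between phases, where 3 of 12 at E11.5 and 1 of 10 at E10.5 reached an unadjusted p below 0.05 in the authors' deposited tables. Maf had 112 FPKM in E11.5 G1 cells and 13.8 FPKM in E10.5 G1 cells and rose 8.12-fold, and in S/G2/M cells it rose 4.68-fold with age. Spi1, which encodes PU.1, rose 4.43-fold with age in G1 cells, to 108 FPKM at E11.5 against 24.4 FPKM at E10.5, and Irf5 rose 5.09-fold. Id3, the most abundant factor of the list by the mean of the groups though below Maf and Spi1 in E11.5 G1, had 81.1 FPKM in E11.5 S/G2/M, 66.6 FPKM in E11.5 G1, 123 FPKM in E10.5 S/G2/M and 128 FPKM in E10.5 G1 cells, and was called in no comparison.

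C1q marks dying cells for uptake, and genes of phagocytosis were therefore counted beside it. Of 17 tested genes, 8 rose with age in G1 cells and 3 in S/G2/M cells, and none fell. The shares of all tested genes called higher were 3.0% and 2.14%. Between phases 1 of 16 fell in S/G2/M cells at E11.5, where 0.564% of all tested genes were called lower. None was called at E10.5, where 1 of 16 reached an unadjusted p below 0.05 in the authors' deposited table. Gas6, which bridges dying cells to the receptor Mertk, was the one that fell, with 6.73 FPKM in E11.5 S/G2/M cells and 31.8 FPKM in E11.5 G1 cells. Mertk rose 5.61-fold with age in G1 cells, and Itgam, a subunit of complement receptor CR3, rose 13.2-fold in the same comparison, with Itgb2 at 5.33-fold, Fcgr3, an antibody receptor gene, at 5.13-fold and Rac2 at 4.22-fold. Fcgr2b rose too, to 2.51 FPKM at E11.5 against a listed 0 at E10.5. In S/G2/M cells Dock2 rose 7.83-fold, Rac2 4.39-fold and Elmo1 2.76-fold with age. Mfge8, which bridges dying cells to phagocytes, had 21.9 FPKM in E11.5 S/G2/M, 30.1 FPKM in E11.5 G1, 23.6 FPKM in E10.5 S/G2/M and 20.9 FPKM in E10.5 G1 cells and was not called. Rac2, a small GTPase gene of blood cells, had 74.5 FPKM in E11.5 S/G2/M and 78.8 FPKM in E11.5 G1 cells, a phase gap of 1.06-fold where that of the chains was 3.63-fold to 6.06-fold.

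Markers of other cell types were counted in the same way. Of 11 monocyte and granulocyte markers, 5 of 9 tested rose with age in G1 cells and 3 of 8 in S/G2/M cells. The shares of all tested genes called higher were 3.0% and 2.14%. By phase at E11.5, 0.137% of all tested genes were called higher and 0.564% lower. At E11.5 Mpo rose in S/G2/M cells, with 341 FPKM against 93.7 FPKM in G1 cells, and S100a8 fell, with a listed value of 0 in cycling cells and 13.1 FPKM in G1 cells. At E10.5 no marker of this list was called and 1 of 8 reached an unadjusted p below 0.05 in the authors' deposited table. Lyz2, the lysozyme gene of macrophages and granulocytes, was highest in E11.5 G1 cells, at 294 FPKM against 125 FPKM in E11.5 S/G2/M cells.

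Of 10 stem and progenitor markers, 5 rose with age in S/G2/M cells, 2 of 9 tested rose with age in G1 cells, and 1, Hlf, rose in S/G2/M cells at E11.5. In these comparisons 2.14%, 3.0% and 0.137% of all tested genes were called higher. None was called at E10.5, where 2 reached an unadjusted p below 0.05 in the authors' deposited table. At E11.5, 8 of the 10 had a higher level in S/G2/M than in G1 cells, the opposite direction to the chains. Their list had a median log2 difference of 0.97 there, and 5 reached an unadjusted p below 0.05 in the authors' deposited table. Runx1 was among those higher, with 39.6 FPKM in E11.5 S/G2/M cells and 26.6 FPKM in E11.5 G1 cells. It was not called (q = 0.811 in the authors' deposited table). The endothelial markers summed to 702 FPKM in E11.5 S/G2/M, 875 FPKM in E11.5 G1, 366 FPKM in E10.5 S/G2/M and 481 FPKM in E10.5 G1, the group order of the chains. The 10 were all higher at E11.5 in both phases, and 3 rose with age in S/G2/M cells and 1 in G1 cells. The shares of all tested genes called higher there were 2.14% and 3.0%. In S/G2/M cells 8 of the 10 were lower than in G1 at E11.5 and 10 of 10 at E10.5. None of them was called between phases, with 0 at E11.5 and 2 at E10.5 under an unadjusted p of 0.05 in the authors' deposited tables.

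Of 9 erythroid markers, 3 fell with age in S/G2/M cells and 3 fell in S/G2/M cells at E11.5, and none was called in the other comparisons (unadjusted p below 0.05 for 2 at age in G1 and 0 at phase at E10.5 in the authors' deposited tables). Across all tested genes, 1.93% were called lower with age in S/G2/M and 0.564% by phase at E11.5. Hba-x, an embryonic globin gene, was at 1674 FPKM in E11.5 S/G2/M cells and 7312 FPKM in E11.5 G1 cells, so globin RNA shared the direction of the chains in this comparison, although globin genes share sequence and their counts are uncertain. Of 10 neural and mesenchymal markers, 5 fell with age in G1 cells, 3 fell with age in S/G2/M cells and 4 fell in S/G2/M cells at E10.5. In these comparisons 1.45%, 1.93% and 0.462% of all tested genes were called lower. Tubb3, a neuronal tubulin gene, had 25.6 FPKM in E10.5 S/G2/M cells and 135 FPKM in E10.5 G1 cells. None of the 10 was called between phases at E11.5, where 3 reached an unadjusted p below 0.05 in the authors' deposited table. The part of these cell types in the C1q values was not tested.

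The genes nearest to the chains were looked for by the Euclidean distance between log2 differences over the 4 comparisons, which are built from the same 4 groups. The search covered 9728 gene models above 0 FPKM in all groups and at 5 FPKM or more in at least 1. The distance to the mean of the chains was 0.36 to 0.60 for the 10 nearest genes, against 0.74 for C1qa, 0.46 for C1qb and 0.49 for C1qc themselves. In order of distance the 10 were March1, Lgmn, Trem2, Clec4a1, Unc93b1, Serpinb8, Fcrls, Fcgr4, P2ry13 and Lipe, where March1 is listed under a name that had turned into a date and was identified by its position.

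Lgmn, which encodes the lysosomal protease legumain, had 38.8 FPKM in E11.5 S/G2/M, 143 FPKM in E11.5 G1, 11.7 FPKM in E10.5 S/G2/M and 18.2 FPKM in E10.5 G1. Lgmn and Fcrls, a receptor-like gene of the Fc receptor family, were called in the same 3 comparisons as C1qb and C1qc. Of the 10 nearest genes, 6 were called in no comparison, which were March1, Trem2, Serpinb8, Fcgr4, P2ry13 and Lipe. Trem2, a phagocyte receptor gene, had 9.59 FPKM in E11.5 S/G2/M and 36.8 FPKM in E11.5 G1 cells, with a lowest q of 0.186 in the authors' deposited tables. Lgmn and Trem2 were also on the macrophage list and Fcgr4 on the phagocytosis list. The low levels of March1 (at most 5.22 FPKM in a phase table) and Serpinb8 (at most 6.50 FPKM) make their place uncertain. Fcgr4, Lipe and Clec4a1 were also low in E10.5 S/G2/M cells, at 0.581, 0.978 and 1.04 FPKM, so their places are uncertain too. March1, Serpinb8, Fcgr4, Lipe and Clec4a1 reached the 5 FPKM minimum only in E11.5 G1, where the chains were highest. The filter thus let them in through that group, and nothing is read from their nearness.

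**Figure D4:**
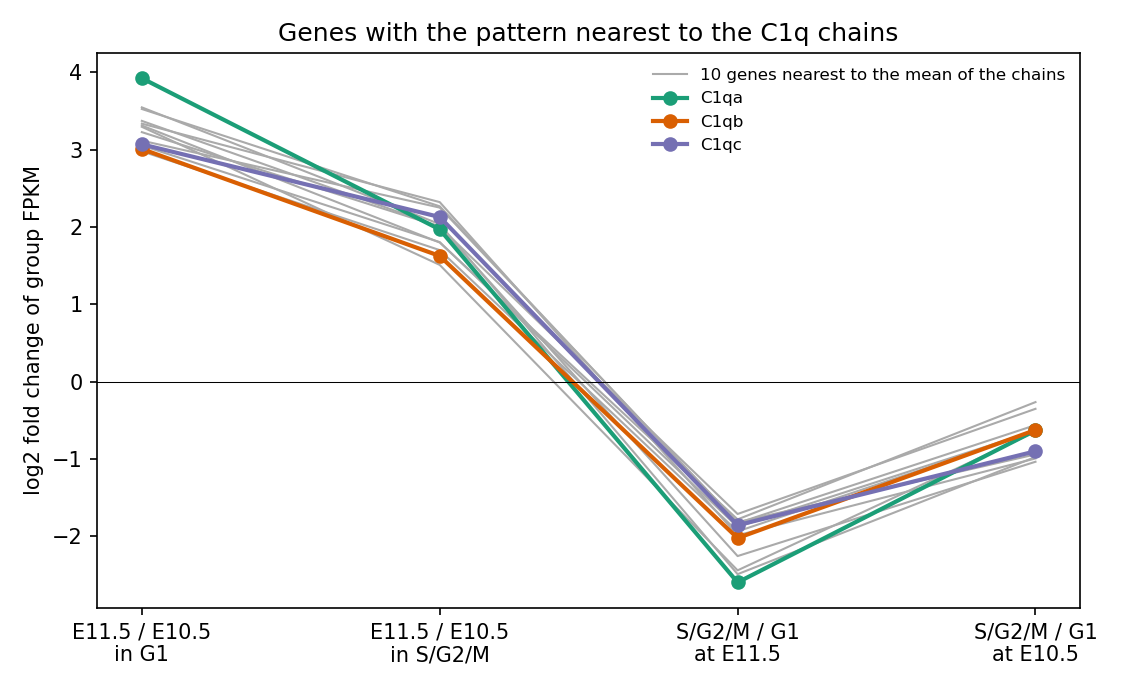
Log2 fold change of group FPKM (vertical axis) in the 4 comparisons for C1qa, C1qb and C1qc (coloured) and the 10 genes with the smallest distance to their mean (grey lines). Lines join comparisons of the same gene and are no time course; C1qa departs most from the mean, at 3.93 for age in G1 and -2.60 for phase at E11.5.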

How the data were processed

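RNA was sequenced from 12 samples of sorted cluster cells, 3 per group. The tools CASAVA 1.4, TopHat and Cuffdiff and the build mm10 stand in the submitters' processing notes, with no role given, whereas the labels' protocols name bowtie 0.12.2 and mm8. Of 23085 symbols also in GENCODE M21 (GRCm38), 22874 overlapped the gene of that symbol, so coordinates are given as mm10. The 6 deposited tables hold, per the file headers, 1 FPKM value per gene and group and a p-value and q-value of the authors' gene test. The S/G2/M group is named G2 in the tables. The authors left 11147 to 11717 gene models per table untested. The read depth, and with it the precision, is unknown, and no source used here gives the strandedness.

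Log2 fold changes were computed here from the deposited FPKM values without a pseudocount. No test was run over samples. The search for similar patterns was run on simulated data with genes planted beside a known profile, which checks the code and not the genes found here. Of 158 list genes, 157 were found in the tables. The members and the 12 lists were chosen with earlier results of these data known. The text names the chains, the flanking genes, the 10 nearest patterns, 5 defining macrophage markers, and by list the 3 most abundant genes and up to 6 called ones by fold, with fewer for other cell types, not all of which are printed. The choice of C1s1, C4b, Hc, C2 and C4a, and of the motifs, followed a look at their values or sequences. Alternatives were a q of 0.085, a pseudocount of 1, median scaling, the tables in the other order, a log2 change of at least 1 and at least 1 FPKM. Computation was done in Python 3.11.15 with pandas 2.3.3 and numpy 2.4.6, and plots with matplotlib 3.10.9.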

Additional observations from a re-analysis of the deposited data

How the results depend on the processing

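The calls of the 12 log2 differences of the chains stayed the same at a q of 0.085. The 6 differences between phases kept their direction and their call in the tables of the other order. With a pseudocount of 1 FPKM or with median scaling, the 12 differences kept their direction. No q was computed anew for these settings, so the calls could not change there, and a pseudocount cannot reverse a direction. The largest shift was 0.20, with the pseudocount, for C1qa by age in S/G2/M (1.77 against 1.97). At a q of 0.085, 5 of 48 list counts moved by over 1.5 times. By age in S/G2/M, other C1q-domain genes had 1 call instead of 0, macrophage transcription factors 2 instead of 1, phagocytosis genes 5 instead of 3, and neural and mesenchymal markers 5 instead of 3. By phase at E11.5, phagocytosis genes had 2 calls instead of 1. With a pseudocount of 1 FPKM, 5 of the 10 nearest genes remained among the 10, and the cause was not tested. No paired analysis was possible because the deposited columns hold 1 value per group, and for the same reason no replicate could be left out.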

Other observations

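Most genes of the lectin pathway, which starts the same cascade without C1q, and of the collectins were also low. Of 11 genes in this joint list, 7 stayed under 1 FPKM in every group and 4 were listed at 0 throughout. Fcna, which encodes ficolin A, a recognition protein of macrophages, had 0.361 FPKM in E11.5 S/G2/M cells and 9.35 FPKM in E11.5 G1 cells, but it was not called (q = 0.802 in the authors' deposited table). Colec12, a scavenger receptor gene with a collagen-like domain, had 4.98, 9.06, 8.56 and 8.85 FPKM in E11.5 S/G2/M, E11.5 G1, E10.5 S/G2/M and E10.5 G1 cells. Masp1, a lectin pathway protease gene, had 0.0459, 0.498, 1.76 and 0.651 FPKM in these groups. Only 2 or 3 of the 11 genes were tested in each comparison. No tested gene was called, and none reached an unadjusted p below 0.05 in the authors' deposited tables.

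Other genes with a C1q-like domain had a small median difference with age and lower levels in S/G2/M cells. Of 26 such genes, 11 stayed under 1 FPKM in every group. The median log2 difference of those tested and above 0 in both groups was 0.16 by age in G1 and 0.01 by age in S/G2/M. By phase it was -0.71 at E11.5, where 9 of 11 tested were lower in S/G2/M, and -0.59 at E10.5, where 13 of 14 were lower. Cbln4, a synaptic protein gene, was the single one called. It was listed at 0 in both S/G2/M groups and in E11.5 G1, with 1.33 FPKM in E10.5 G1 cells, and fell with age in G1 and in the cycling cells of E10.5. There 1.45% and 0.462% of all tested genes were called lower. By phase at E11.5 and by age in S/G2/M 11 of the 26 were tested and none was called. In each, 2 lay under an unadjusted p of 0.05 in the authors' deposited tables. The most abundant was Mmrn1, the multimerin gene of platelets and endothelium, at 26.4 FPKM in E11.5 S/G2/M cells, 31.1 FPKM in E11.5 G1 cells, 12.8 FPKM in E10.5 S/G2/M cells and 15.5 FPKM in E10.5 G1 cells. Emilin1 had 11.6, 18.9, 12.3 and 13.7 FPKM and Mmrn2 9.88, 20.1, 8.03 and 9.41 FPKM in the same order of groups.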
